A study of Mus musculus with 16 samples.

Results

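Immune checkpoints are pairs of surface proteins through which a cell restrains the immune cell that meets it. A ligand on a tumor cell, a macrophage or a dendritic cell binds a receptor on a T cell or NK cell and dampens its activation, and CD47 in the same way holds off phagocytosis by binding SIRPα on macrophages. The 9 genes described here were fixed by name and not by a cut on their values, though earlier results of these data were known. They are 4 ligands or ligand-like genes, namely Cd274 (PD-L1), Pdcd1lg2 (PD-L2), Cd276 (B7-H3) and Cd47, and 5 receptors, namely Pdcd1 (PD-1), Ctla4, Lag3, Havcr2 (TIM-3) and Tigit. They are 9 of the 24982 genes in the count table, and all 9 had reads in at least 1 tumor and were tested.

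RNA-seq was done on 16 primary rhabdoid tumors (RT), 1 from each of 16 Smarcb1flox/flox;R26-CreERT2 mice, in which tamoxifen given to the pregnant mother activates a Cre recombinase made from the broadly active Rosa26 locus and deletes Smarcb1. The 5 Shh tumors (mice 29048, 38594A, 29050A, R26P98 and R26P87) grew inside the central nervous system after tamoxifen at embryonic day 6, at ages of 30 to 180 days. The 11 Myc tumors came from mice aged 52 to 210 days and lay outside the central nervous system. Of these, 6 were intracranial (43989C, 43992A, 29941C and R26P115 with tamoxifen at day 8, 29225D at day 7 and R26P170 at day 6), and 5 were extracranial (43987A and R26P123 from the jaw, 43990A from the nose and 43998A from the mouth, all at day 8, and 43825B from the back at day 6). No sample without the deletion, and no normal tissue, was compared here, and subgroup cannot be told apart from site inside or outside the nervous system.

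Total counts ranged from 17889968 to 110177889 per tumor. Smarcb1 itself was listed at 3.99 to 58.1 TPM (a level per transcript length, scaled to the library) in Shh tumors and at 6.48 to 43.7 TPM in Myc tumors, and the highest level of each subgroup was in 29048 and R26P115. Since every mouse carried the floxed alleles, these levels have no undeleted sample to be read against. In 29048 the 4 oligodendrocyte markers summed to 5462 TPM, against 18.8 TPM in R26P87, the lowest of the Shh tumors, and in R26P115 the choroid plexus gene Ttr took 10.1% of all counts. Bulk RNA does not tell fewer cells of a type apart from less RNA per cell.

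On the scale of TPM the 9 genes fell into an abundant and a scarce set. In Shh tumors the mean levels ran from Cd276 (83.9 ± 36.1 TPM, SD, n = 5) through Cd47 (50.3 ± 14.7 TPM), Lag3 (15.7 ± 9.86 TPM), Havcr2 (6.41 ± 1.44 TPM) and Cd274 (2.84 ± 1.16 TPM) down to Pdcd1, Tigit, Ctla4 and Pdcd1lg2, all with means under 1 TPM. Cd47 was above Lag3, Lag3 above Havcr2, Havcr2 above Cd274, Cd274 above Pdcd1 and Pdcd1 above Tigit in each of the 5 Shh tumors. Cd276 exceeded Cd47 in 4 of 5, so that these neighbors in the order were not separated in every tumor. In intracranial Myc tumors Cd47 led with a mean of 97.7 ± 129.6 TPM (SD, n = 6), carried by 43992A at 361.9 TPM where the other 5 tumors held 39.6 to 51.8 TPM, followed by Cd274 at 32.9 ± 30.2 TPM (SD, n = 6), Havcr2 at 14.9 ± 7.50 TPM, Cd276 at 9.22 ± 3.15 TPM and Lag3 at 7.21 ± 4.76 TPM. In extracranial Myc tumors the order was Cd47 (100.1 ± 74.2 TPM, SD, n = 5), Cd276 (26.4 ± 16.1 TPM), Havcr2 (22.6 ± 18.9 TPM), Cd274 (19.8 ± 8.15 TPM) and Lag3 (18.3 ± 9.82 TPM). Among these upper 5 genes no neighbors kept their order in every Myc tumor of either site, whereas Lag3 stood above Pdcd1 in each of them.

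**Figure D1:**
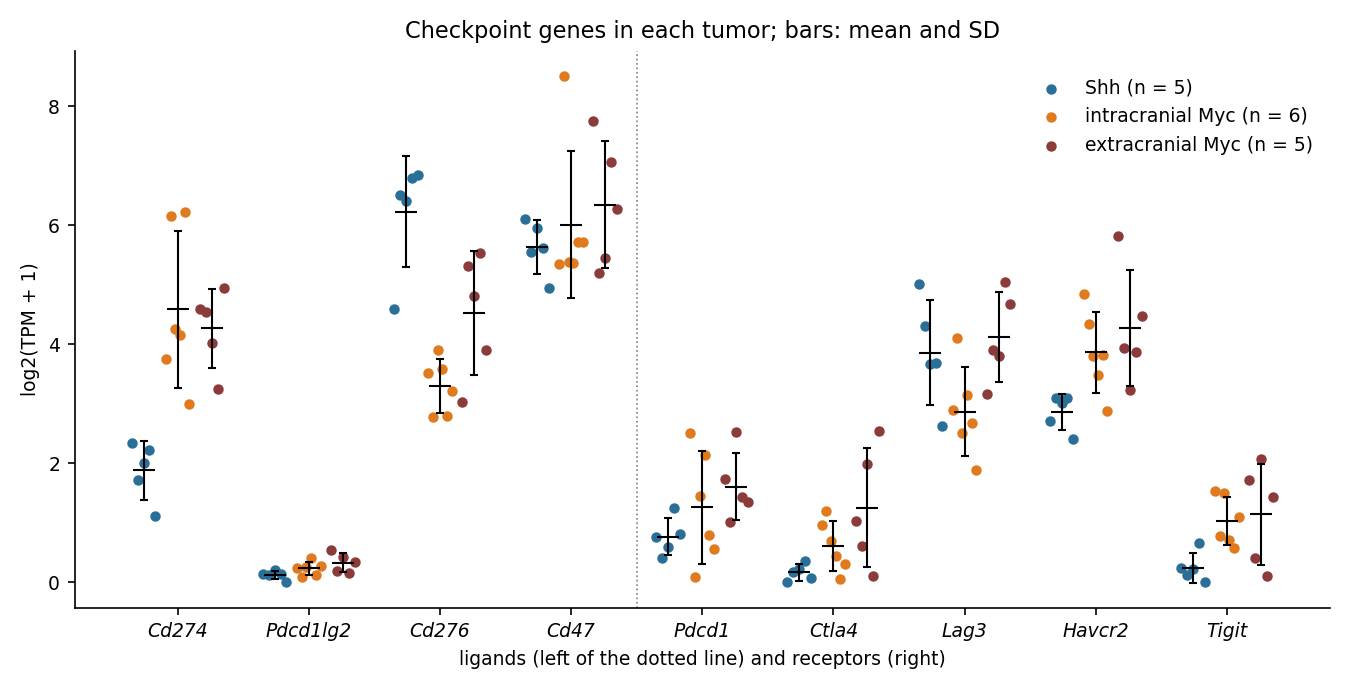
Levels of the 9 checkpoint genes as log2(TPM + 1), 1 point per tumor, for 5 Shh, 6 intracranial Myc and 5 extracranial Myc tumors, with bars for mean and SD. Cd274 separates the Shh tumors from all 11 Myc tumors, Cd276 runs the other way apart from the Shh tumor 29048, and Pdcd1, Ctla4, Tigit and Pdcd1lg2 lie near the bottom of the scale.

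The genes sit on 6 chromosomes in GRCm38 (GENCODE release M21), and Cd274 (chr19:29367455-29388095) and Pdcd1lg2 (chr19:29410919-29471161) are neighbors on the plus strand, 22824 bases apart. Cd276 lies at chr9:58524298-58555437 on the minus strand, Cd47 at chr16:49800533-49915010 on the plus strand and Tigit at chr16:43648867-43664146 on the minus strand. Ctla4 lies at chr1:60887000-60915832 (plus strand), Pdcd1 at chr1:94038305-94052553 (minus), Lag3 at chr6:124904361-124911705 (minus) and Havcr2 at chr11:46454935-46481255 (plus). Pdcd1lg2 overlaps the antisense gene A930007I19Rik, which is counted in the same table. The library kit keeps strand, but whether the counting used it is not given in the sources used here, so that the few Pdcd1lg2 reads are uncertain for that reason as well.

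Promoter windows of 300 bases around the start site (RefSeq, GRCm38.p6) were found for 8 of the 9 genes, with Lag3 the one without an entry. The members differed widely in CpG content. Cd276 held 39 CpG dinucleotides in its window and Cd47 held 35 and 36 in its 2 windows, numbers reached by 4.45%, 6.95% and 6.23% of the 32851 windows in the table. Cd274 held 15, and Ctla4, Pdcd1, Tigit, Havcr2 and Pdcd1lg2 held 3 to 8, where the median of all windows was 7. The windows of 3 members are shown because these genes were past the threshold between the subgroups in the tests given further on, with Cd276 in one direction and Cd274 and Havcr2 in the other. They are written 5′ to 3′ on the strand of the gene, with every CpG in capitals.
Cd276, chr9:58554984-58555283, minus strand: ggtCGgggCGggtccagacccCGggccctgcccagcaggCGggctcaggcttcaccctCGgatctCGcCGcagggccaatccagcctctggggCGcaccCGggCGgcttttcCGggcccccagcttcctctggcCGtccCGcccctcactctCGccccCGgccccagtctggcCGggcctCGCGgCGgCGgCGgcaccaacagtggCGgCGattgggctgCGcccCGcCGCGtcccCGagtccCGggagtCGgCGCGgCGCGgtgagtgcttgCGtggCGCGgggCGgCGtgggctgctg
Cd274, chr19:29367188-29367487, plus strand: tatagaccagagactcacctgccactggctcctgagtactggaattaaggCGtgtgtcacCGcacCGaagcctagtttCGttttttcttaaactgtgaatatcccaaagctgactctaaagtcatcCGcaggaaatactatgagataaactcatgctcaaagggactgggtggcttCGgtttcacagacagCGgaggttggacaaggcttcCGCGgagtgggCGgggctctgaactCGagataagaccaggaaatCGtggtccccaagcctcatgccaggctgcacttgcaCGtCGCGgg
Havcr2, chr11:46454681-46454980, plus strand: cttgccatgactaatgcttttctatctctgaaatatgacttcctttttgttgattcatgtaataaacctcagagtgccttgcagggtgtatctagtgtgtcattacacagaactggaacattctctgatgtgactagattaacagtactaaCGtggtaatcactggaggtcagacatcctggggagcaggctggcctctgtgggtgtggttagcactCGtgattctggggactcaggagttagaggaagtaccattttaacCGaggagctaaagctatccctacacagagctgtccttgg
Both strands of the 8 genes' windows were searched for an interferon-response core of GAAA, any 2 bases and GAAA (in 3.44% of all windows), CACGTG, the E-box of Myc (7.15%), and TGANTCA, the AP-1 site (7.81%). The only match was TGATTCA in the Havcr2 window, beginning at base 51 of it. These letters were not in the other windows, which says nothing of more distant elements.

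Between Shh and Myc tumors, 6 of the 9 genes passed the threshold (edgeR quasi-likelihood test, Benjamini-Hochberg adjusted p under 0.05 over 21854 genes and a log2 fold change past 1). Cd274, Pdcd1lg2, Ctla4, Havcr2 and Tigit were lower in Shh tumors and Cd276 was higher. Of all genes tested 26% passed in either direction, 13.1% as lower and 12.9% as higher in Shh tumors. The median log2 fold change of the 9 genes was -1.97, against -0.15 over all genes. Without 29048 and R26P115, a setting added once the data had been seen, 5 of the 9 passed, all but Pdcd1lg2 of those named, where 27.1% of all genes did.

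Among the ligands, Cd274 encodes PD-L1, which binds PD-1 on T cells and which interferon-gamma induces on tumor cells and macrophages. Its level was 1.16 TPM in R26P87, 2.28 in 38594A, 3.03 in 29050A, 3.65 in R26P98 and 4.06 in 29048. The 11 Myc tumors ranged from 6.98 TPM in R26P115 through a median of 18.1 TPM to 73.4 TPM in R26P170. The subgroups did not overlap, a property shared by 11.2% of all genes on the scale of CPM (reads per gene, scaled to the library). Cd274 was 13.7-fold lower in Shh tumors (95% CI 5.32 to 35.3; log2 fold change -3.78 ± 0.65 SE, edgeR adjusted p = 0.000375). Leaving out each of the 16 tumors in turn gave log2 fold changes of -3.94 to -3.49 and kept the call each time. With the 2 Myc tumors induced at day 6 alone, as all Shh tumors were, the log2 fold change was -4.65 (edgeR adjusted p = 0.00259), and within the mice with numbered names it was -3.52 (edgeR adjusted p = 0.0037). Within the 5 mice of the R26P series, where no gene of the whole table passed the test, it was -4.45 with an adjusted p of 0.22 in the same test.

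Pdcd1lg2 encodes PD-L2, the other ligand of PD-1, found mainly on macrophages and dendritic cells. It was the scarcest of the 9 genes, with no read in R26P87 and 0.094 to 0.148 TPM in the other Shh tumors, or 24 reads over all 5. The Myc tumors held 0.0669 to 0.461 TPM and 141 reads over all 11, and 7 of them were above every Shh tumor. The fold change passed narrowly (log2 fold change -1.76 ± 0.65 SE, edgeR adjusted p = 0.0482). The call was lost on leaving out any one of 12 of the 16 tumors, all but 43992A, 43998A, R26P170 and R26P115, with adjusted p up to 0.092 in the same edgeR test, and also with limma on log2(TPM + 1) (-0.16, adjusted p = 0.0729).

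Cd276 encodes B7-H3, a surface protein carried by many solid tumors whose receptor on T cells is not settled. It stood at 84.2 TPM in 29050A, 89.8 in 38594A, 109.2 in R26P98 and 113.2 in R26P87, but at 23.2 TPM in 29048. The 11 Myc tumors ranged from 5.85 TPM in 43992A through a median of 10.9 TPM to 45.1 TPM in 43998A. The 4 other Shh tumors were thus above every Myc tumor, while 29048 fell within the range of the extracranial Myc tumors. Cd276 was 3.42-fold higher in Shh tumors (95% CI 1.68 to 6.97; log2 fold change 1.77 ± 0.49 SE, edgeR adjusted p = 0.0105). Without 29048 and R26P115 the log2 fold change was 1.95 (edgeR adjusted p = 0.00705). Within the numbered mice it was 1.12 with an adjusted p of 0.201, and within the R26P mice it was 3.00 with an adjusted p of 0.16, both in edgeR. With the tumors induced at day 6 alone it was 3.11 (edgeR adjusted p = 0.02).

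Cd47 encodes the signal that restrains engulfment by macrophages. Shh tumors held 29.6 TPM in R26P87, 45.5 in 38594A, 48.2 in R26P98, 60.8 in 29050A and 67.6 in 29048. In 7 of the 11 Myc tumors the level was at or under that of the highest Shh tumor, and it reached 76.1 TPM in R26P123, 131.8 in 43998A, 214.0 in 43825B and 361.9 in 43992A. On the scale of TPM, Cd47 was therefore above every Shh tumor in 4 Myc tumors, 3 of them extracranial. On the scale of CPM, 2 more Myc tumors exceeded the highest Shh tumor (29048 at 41.1), namely R26P115 (52.5) and R26P170 (44.9). Both of these are intracranial, so the count and the lean to 1 site depended on the scale. The subgroups overlapped and the difference did not pass the threshold (log2 fold change -1.54, 95% CI -2.84 to -0.24, edgeR adjusted p = 0.064). Leaving out 43989C alone brought the adjusted p of this edgeR test to 0.0484 at a log2 fold change of -1.69. Cd47 also passed with tumors induced at day 6 alone (log2 fold change -2.001, edgeR adjusted p = 0.0333) and with DESeq2 (-1.51, adjusted p = 0.0217), but not with limma on log2(TPM + 1) (-0.53, adjusted p = 0.442) or log2(TPM + 0.1) (-0.54, adjusted p = 0.422).

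**Figure D2:**
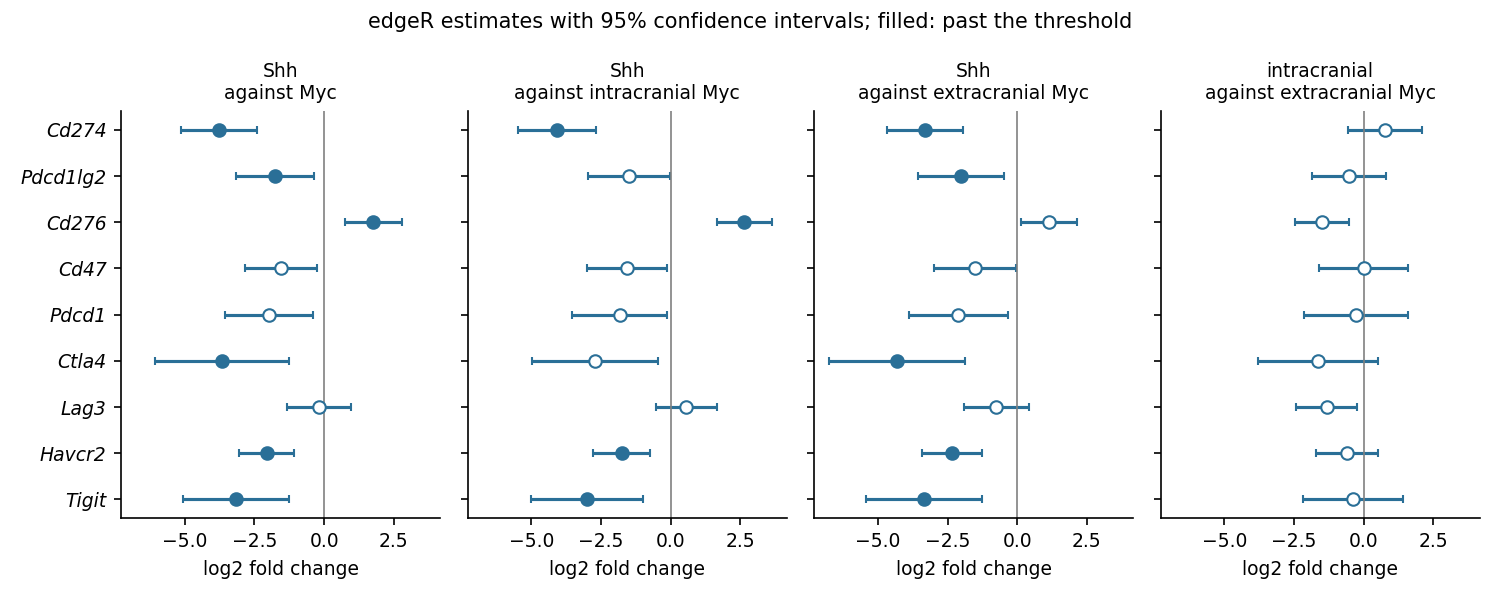
Log2 fold changes (first group against second) of the 9 genes with 95% confidence intervals from edgeR in 4 comparisons, filled where the gene passed the threshold. Cd274 is lower and Cd276 higher in Shh tumors in the first panels, the intervals of Ctla4, Tigit and Pdcd1 are wide, and no gene is filled in the comparison of Myc tumors by site.

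Among the receptors, Havcr2 encodes TIM-3, which is carried by exhausted T cells but also by macrophages, microglia and dendritic cells. It was at 4.31 TPM in R26P87, 5.55 in 29048, 7.04 in 29050A and 7.57 in both R26P98 and 38594A. The Myc tumors ranged from 6.35 TPM in R26P115 through a median of 13.7 TPM to 55.4 TPM in 43825B, and 10 of 11 were above every Shh tumor. Havcr2 was 4.15-fold lower in Shh tumors (95% CI 2.10 to 8.20; log2 fold change -2.05 ± 0.47 SE, edgeR adjusted p = 0.00307). Without R26P115 and 29048 the log2 fold change was -2.09 (edgeR adjusted p = 0.00507), and within the numbered mice it was -2.21 (edgeR adjusted p = 0.0209). With the tumors induced at day 6 alone it was -3.01 (edgeR adjusted p = 0.00917), and with limma on log2(TPM + 1) it was -1.18 (adjusted p = 0.0186).

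Tigit, an inhibitory receptor of T and NK cells that binds the poliovirus receptor Pvr, was barely detected in Shh tumors, with 12 reads over all 5 and none in R26P87. Its level was 0 to 0.575 TPM in Shh and 0.0768 to 3.18 TPM in Myc tumors, where 8 of 11 were above every Shh tumor. The log2 fold change was -3.16 ± 0.90 SE (edgeR adjusted p = 0.013), and -3.95 without R26P98. Ctla4, which competes with CD28 for CD80 and CD86, had 17 reads over the 5 Shh tumors and none in 29048. It was at 0 to 0.287 TPM in Shh tumors, and in Myc tumors from 0.041 TPM in R26P170 through a median of 0.613 TPM to 4.82 TPM in R26P123. The log2 fold change was -3.66 ± 1.13 SE (edgeR adjusted p = 0.0206), and leaving out R26P87 gave -3.49 with an adjusted p of 0.051 in the same edgeR test. With limma on log2(TPM + 1) neither passed, Ctla4 at -0.74 (adjusted p = 0.0982) and Tigit, whose change fell under the fold threshold, at -0.84 (adjusted p = 0.024). With the tumors induced at day 6 alone, the adjusted p was 0.205 for Ctla4 and 0.0796 for Tigit, at log2 fold changes of -2.61 and -3.34 in edgeR.

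Pdcd1 encodes PD-1, the receptor of both PD-L1 and PD-L2 on activated and exhausted T cells. It lay between 0.334 TPM in 38594A and 1.38 TPM in R26P98 in Shh tumors, and between 0.0592 TPM (a single read) in 43992A and 4.73 TPM in 43990A in Myc tumors. It did not pass the threshold (log2 fold change -1.97, 95% CI -3.55 to -0.38, edgeR adjusted p = 0.0532). It passed in edgeR on leaving out 43992A (log2 fold change -2.10, adjusted p = 0.0154), R26P170 (-2.05, adjusted p = 0.0486) or R26P115 (-2.07, adjusted p = 0.0344), on filtering low counts (-1.95, adjusted p = 0.0388), and with DESeq2 (-1.95, adjusted p = 0.00573). In the remaining 21 of 26 alternatives it did not pass, and the log2 fold change over all 26 was -2.83 to -0.32. Myc tumor 43992A thus had the highest Cd47, the next-to-highest Cd274 and the lowest Pdcd1 of the 11.

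Lag3, an inhibitory receptor of T and NK cells that binds MHC class II, did not follow the other receptors. Shh tumors held 5.14 TPM in R26P87, 11.7 in 29050A, 11.8 in R26P98, 18.7 in 38594A and 31.1 in 29048. Myc tumors ranged from 2.68 TPM in R26P115 through a median of 7.96 TPM to 32.2 TPM in 43998A. The ranges overlapped almost wholly, and the log2 fold change was -0.18 with a 95% CI of -1.31 to 0.96 (edgeR adjusted p = 0.816). Without 29048 and R26P115 it was -0.68 (edgeR adjusted p = 0.331). On the scale of log2(TPM + 1) with limma its sign turned (0.42, adjusted p = 0.547), whereas the sign of the other 8 genes was the same on both scales. The median over all genes also moved between these scales, from -0.15 to 0.20. The neuron markers Tubb3, Dcx, Stmn2 and Snap25 summed to 3081 TPM in 29048 and to 469.5 TPM in 43998A, the highest of the Shh and of the Myc tumors, and these 2 tumors also had the highest Lag3 of their subgroups. The sum hides that these markers differed against extracranial Myc tumors. Dcx was 277-fold, Tubb3 42.5-fold and Snap25 12.1-fold higher in Shh tumors, but Stmn2 only 1.56-fold (edgeR, fit of 3 groups). Which marker carried the sum in 43998A was not tested, nor was the part of neural tissue in the Lag3 values. Ptms, the next gene upstream of Lag3 on the same strand at a distance of 1976 bases, was at 280.2 to 2705 TPM, and its part in the Lag3 reads was not tested.

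The receptors were then set beside markers of the cells that carry them. The 10 macrophage markers were all lower in Shh tumors, with a median log2 fold change of -2.55. Their summed level was 857 to 1382 TPM in Shh tumors and 1059 to 10779 TPM in Myc tumors, lowest in R26P115. Microglia markers did not move this way, with 2 of 4 (Siglech and Sall1) higher and none lower in Shh tumors, and 44.7 to 106.3 TPM against 13.6 to 154.7 TPM in sum. The call for Sall1 was lost without 29048, 38594A, 43989C, 29225D or R26P98 (edgeR adjusted p up to 0.068). Of 10 T cell markers 4 were lower (Cd3d, Cd3g, Cd2 and Cd4) and none higher, with sums of 3.26 to 9.93 TPM and 6.27 to 64.8 TPM. Cd3d, Cd3e and Cd3g together had 0 reads in R26P87, 3 in 29048, 9 in 38594A, 39 in R26P98 and 71 in 29050A. The calls for Cd3g and Cd2 were lost on leaving out any one of 9 and 10 tumors (edgeR adjusted p up to 0.0959 and 0.101). Of 4 NK cell markers 3 were lower, of 7 dendritic cell markers only Ccr7, and of 4 B cell markers only Cd79b. Of all genes 13.1% were lower in Shh tumors, and 1 of 7 dendritic cell markers is near that share. The call for Ccr7 was lost without 29048, 38594A, 29050A or R26P87 (edgeR adjusted p up to 0.055), and that for the NK cell marker Klrb1c without R26P87 (edgeR adjusted p = 0.0517). Of 4 genes of regulatory or exhausted T cells, Il2ra was lower and Ikzf2 higher. All 3 general leukocyte markers, all 4 fibroblast markers, 3 of 4 skeletal muscle markers and 1 of 4 endothelial markers were lower, whereas 2 of 4 neuron markers and all 4 oligodendrocyte markers were higher. Leaving out 1 tumor ended the calls for the endothelial marker Cdh5 (lost without any one of 9 tumors, edgeR adjusted p up to 0.113), the fibroblast markers Pdgfra (without 29048 or 38594A) and Col1a1 (without 29050A), and the muscle marker Acta1 (without 38594A, 29050A, R26P98 or R26P87). All 4 oligodendrocyte calls were lost without 29048 (edgeR adjusted p 0.32 to 0.814). The log2 fold change of Mbp was 3.67 over all tumors and -1.06 at the lowest on leaving out 1 tumor, and that of Mobp was 6.25 and 0.57.

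Relative to the mean TPM of C1qa, C1qb and C1qc, complement genes made by macrophages and microglia, Havcr2 was 0.0241 to 0.0307 in Shh tumors (median 0.0252) and 0.0073 to 0.0937 in Myc tumors (median 0.0214), so that the ratios overlapped and the Shh median was not the lower one. The Myc maximum was in 43998A, where C1q was the lowest of the Myc tumors but the summed macrophage markers were not under their Myc median. For Cd274 the same ratio was 0.00657 to 0.0177 in Shh tumors (median 0.0122) and 0.00748 to 0.104 in Myc tumors (median 0.0301). It was highest in R26P170 and lowest among Myc tumors in 43989C. Relative to the mean TPM of the 3 Cd3 genes, which could be formed in 2 Shh and 8 Myc tumors with at least 30 Cd3 reads, Lag3 was 10.4 and 15.7 in the Shh tumors R26P98 and 29050A and 1.33 to 21.3 in Myc tumors (median 5.18). Pdcd1 was 0.676 and 1.21 in those 2 Shh tumors against 0.389 to 6.45 in Myc tumors (median 0.992), Tigit was 0.217 and 0.507 against 0.0508 to 6.75 (median 0.47), and Ctla4 was 0.216 and 0.252 against 0.0506 to 2.28 (median 0.368). These ratios are descriptions without a test, and how much of each fold change goes with the number of macrophages or T cells was not tested.

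**Figure D3:**
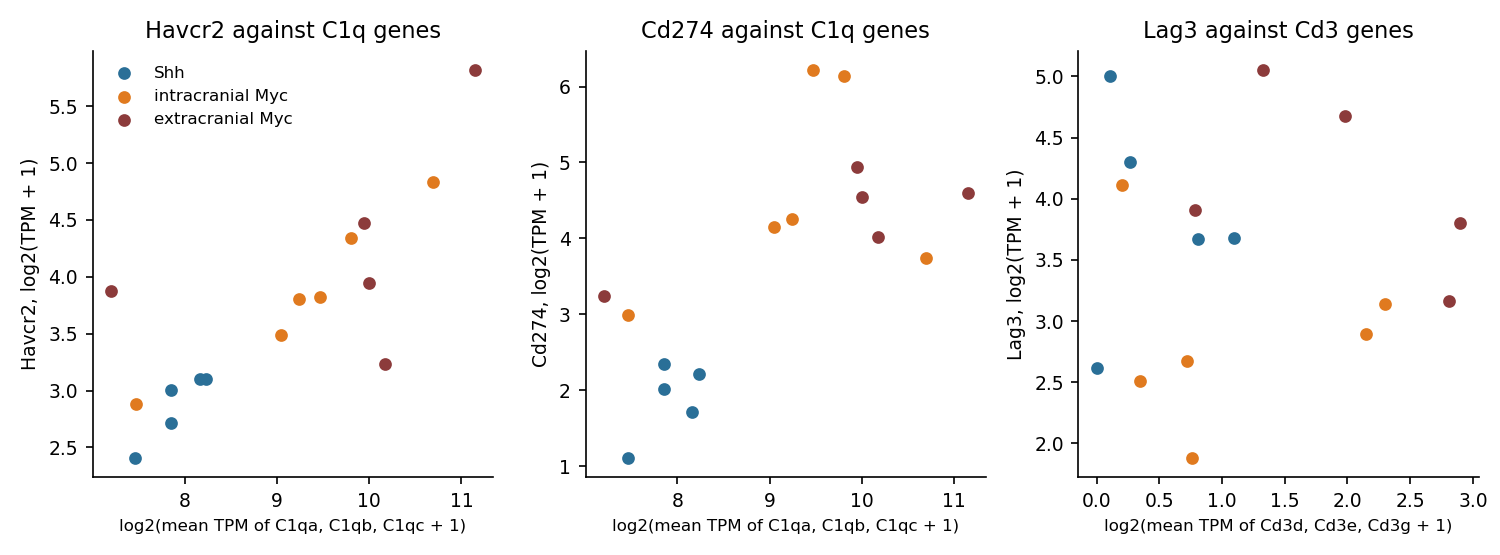
Havcr2 and Cd274 against the mean TPM of 3 C1q genes, and Lag3 against the mean TPM of 3 Cd3 genes, all as log2(TPM + 1) with 1 point per tumor. Havcr2 is highest where C1q is highest, Cd274 is high in Myc tumors at quite different C1q levels, and Lag3 shows high values in Shh tumor 29048 where Cd3 is close to 0.

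Across the 11 Myc tumors, the genes most like each member by Pearson correlation of log2 CPM were ranked among 14273 genes (14274 for the 3 scarcest members) with a mean count of 50 or more. Havcr2 was closest to Itgam, which encodes the integrin CD11b of myeloid cells (r = 0.97, Spearman rho = 1, n = 11), then Rab5c (r = 0.95) and Arhgap45 (r = 0.93). Cd274 was closest to Fam110a (r = 0.95), Scaf1 (r = 0.93) and Mex3d (r = 0.92), and Cd276 to Bmpr2 (r = 0.93), a BMP receptor. Cd47 was closest to Polr1d (r = 0.94), Lag3 to Phospho1 (r = 0.91), Pdcd1 to Bud23 (r = 0.96), and the scarcer Tigit to Slfn1 (r = 0.91), Pdcd1lg2 to Maoa (r = 0.93) and Ctla4 to Ptgs1 (r = 0.86). These are the highest of many values over 11 tumors that share a subgroup and differ in depth and site, and they are given as a description. Among the members themselves the highest correlation was between Ctla4 and Tigit (r = 0.70), followed by Pdcd1lg2 with Pdcd1 (r = 0.65), and the lowest was between Cd274 and Pdcd1 (r = -0.57).

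The partners of the 9 genes, a list of 17 binding proteins and competing receptors, had 13 lower and 1 higher in Shh tumors. Some of these calls were lost on leaving out any one of several tumors, 29048 among them, namely those for Cd226 (7 tumors, edgeR adjusted p up to 0.0955), H2-Aa (5 tumors), H2-Ab1 (3 tumors) and Nectin2 (2 tumors). Lgals3, a galectin that binds LAG3, was at 3.31 to 27.0 TPM in Shh and 102.8 to 639.4 TPM in Myc tumors (log2 fold change -4.75, edgeR adjusted p = 0.000126). Cd80, shared by CD28 and CTLA-4, had the largest fold change (-4.82, edgeR adjusted p = 0.0134), which rested in size on 29941C at 93.8 TPM, since the Myc median was 2.14 TPM and the smallest log2 fold change on leaving out 1 tumor was -2.64. Cd86 was 5.37-fold lower and Lgals9, a ligand of TIM-3, 5.24-fold lower. Pvr, the main ligand of TIGIT, was at 8.62 to 15.0 TPM in Shh and 27.5 to 283.4 TPM in Myc tumors, 9.72-fold lower (edgeR adjusted p = 0.000712). On the side of CD47, its ligand Thbs1 was 11.2-fold lower and its receptor Sirpa 2.72-fold lower (edgeR adjusted p = 0.0298). The call for Sirpa was lost on leaving out 38594A, 29050A, R26P98 or R26P87, at adjusted p up to 0.077 in the same edgeR test. The 1 partner that was higher in Shh tumors was Rgmb, a BMP co-receptor that binds PD-L2, at 33.2 to 85.3 TPM against 14.3 to 39.9 TPM (log2 fold change 1.04, edgeR adjusted p = 0.00614), which fell under the fold threshold on leaving out 29048, 38594A, 43989C, 29225D or R26P87 (0.86 at the least).

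Genes known to control PD-L1 were given by a list of 10, of which 6 were lower and 1 higher in Shh tumors. Irf1, the transcription factor through which interferon-gamma induces Cd274, was at 5.01 to 12.8 TPM in Shh tumors and 24.8 to 101.0 TPM in Myc tumors without overlap (log2 fold change -3.17, edgeR adjusted p = 8.56e-06). Among the others, Ifngr1, Stat3, Jak1 and Cmtm6, a protein that keeps PD-L1 on the surface, had log2 fold changes of -1.68, -1.44, -1.44 and -1.35. The call for Jak1 was lost on leaving out any one of 7 tumors (edgeR adjusted p up to 0.084), and its log2 fold change was as small as -0.88 on leaving out 1 tumor, with 29941C highest at 590.2 TPM. Jak2 was higher in Shh tumors, at 56.5 to 205.7 TPM against 20.1 to 51.9 TPM (log2 fold change 1.42, edgeR adjusted p = 0.000805). Ifng itself had no read in any Shh tumor and 35 reads over the 11 Myc tumors.

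Of 19 other inhibitory genes tested 11 were lower and 2 higher in Shh tumors. Pirb, a myeloid inhibitory receptor, was at 0.687 to 7.33 TPM in Shh and 11.02 to 131.3 TPM in Myc tumors (log2 fold change -4.53, edgeR adjusted p = 0.000106), and Siglecg, a receptor of the signal CD24, had 22 reads over the Shh tumors and 0.234 to 52.5 TPM in Myc tumors (-6.53, edgeR adjusted p = 0.0105). The genes that were higher were Cd24a, the CD24 gene, at 221.4 to 1071 TPM in Shh and 0.896 to 267.0 TPM in Myc tumors (3.10, edgeR adjusted p = 0.0118), and the adenosine receptor Adora2a at 3.73 to 24.1 TPM against 0.364 to 2.04 TPM (3.02, edgeR adjusted p = 0.000185). Without 43992A the log2 fold change of Siglecg was -5.46 and that of Cd24a 3.82. In this list the call for Nt5e was lost on leaving out any one of 12 tumors (edgeR adjusted p up to 0.115) that for Cd244a without 29048 or 29050A and that for Klrc1 without 29050A. Cd24a is also made by neural progenitors and Adora2a by striatal neurons. Of 13 costimulatory genes 8 were lower, among them Cd28, Icos and Tnfrsf9 (log2 fold change -4.13, edgeR adjusted p = 0.0295, Myc median 2.22 TPM and highest 54.8 TPM in 43998A). Without 43998A the log2 fold change of Tnfrsf9 was -2.64. The call for Tnfrsf9 was lost on leaving out any 1 Shh tumor, at adjusted p up to 0.0629 in the same test. That for Tnfsf9 was lost on leaving out any one of 7 tumors (edgeR adjusted p up to 0.102), that for Icosl on leaving out any one of 5, and that for Tnfrsf18 without 29048, 38594A or R26P87. Tnfsf4 had 1 read over the 5 Shh tumors and 159 over the 11 Myc tumors. Cd70 was the 1 costimulatory gene that was higher in Shh tumors, on 18 reads against 3, a call lost on leaving out any one of 8 tumors (edgeR adjusted p up to 0.102). The median log2 fold change was -2.31 over the costimulatory and -2.45 over the other inhibitory genes, against -0.15 over all genes.

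**Figure D4:**
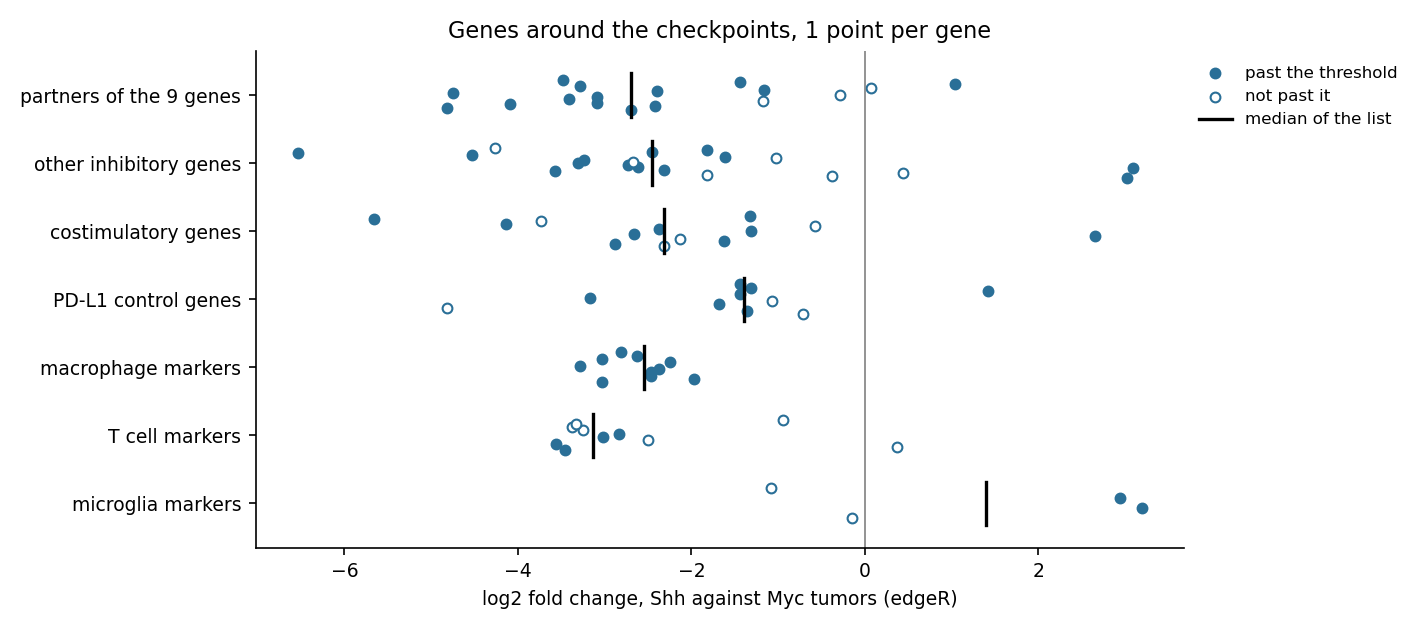
Log2 fold changes (Shh against Myc tumors, edgeR) of genes around the checkpoints, 1 point per gene and 1 row per list, filled where past the threshold and with a bar at the median of the list. All 10 macrophage markers and most partners and other checkpoint genes lie left of 0, and 2 microglia markers lie far to the right.

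Each site of Myc tumor was also compared with the same 5 Shh tumors in a fit of 3 groups, so that these comparisons share their Shh tumors. Against intracranial Myc tumors 4 of 9 genes passed, where 23% of all genes did. Cd274 was 16.9-fold lower (log2 fold change -4.08, edgeR adjusted p = 0.000517), Havcr2 3.39-fold lower (edgeR adjusted p = 0.013) and Tigit 7.92-fold lower (edgeR adjusted p = 0.0283). Cd276 was 6.28-fold higher (95% CI 3.15 to 12.5, edgeR adjusted p = 0.000906), and here all 5 Shh tumors including 29048 were above all 6 intracranial Myc tumors, which held 5.85 to 13.9 TPM, as was the case without overlap for 16.2% of all genes on the scale of CPM. With 43990A (27.1 TPM) counted as intracranial the groups overlapped, and the log2 fold change was 2.33 (edgeR adjusted p = 0.00287). Havcr2 did not pass with limma on log2(TPM + 1) (adjusted p = 0.0783) or log2(TPM + 0.1) (adjusted p = 0.0634), nor Tigit on the first of these scales (adjusted p = 0.0698). Tigit no longer passed without 29048 and R26P115 together (edgeR adjusted p = 0.0599), nor without 29048, 38594A, 29050A, 29941C or R26P87 (adjusted p up to 0.0695 in edgeR) alone, and its log2 fold change went from -2.99 to -3.76 without R26P98. Against extracranial Myc tumors 5 of 9 passed, where 25% of all genes did, namely Cd274 (9.82-fold lower), Havcr2 (5.06-fold), Ctla4 (19.9-fold), Tigit (10.2-fold) and Pdcd1lg2 (4.04-fold, edgeR adjusted p = 0.0469, lost without any one of 11 tumors). On leaving out 1 tumor the log2 fold change of Havcr2 went from -2.34 to -1.67 (without 43825B), that of Ctla4 from -4.31 to -3.62 (without R26P123) and that of Tigit from -3.35 to -4.13 (without R26P98). With limma on log2(TPM + 1) Tigit and Pdcd1lg2 fell under the fold threshold here, at -0.90 (adjusted p = 0.0497) and -0.21 (adjusted p = 0.0441). Cd276 did not pass there (log2 fold change 1.14, 95% CI 0.13 to 2.16, edgeR adjusted p = 0.0831), and passed on leaving out 29048 (1.38, edgeR adjusted p = 0.0298) or 43998A (1.46, edgeR adjusted p = 0.044). It also passed with DESeq2 (1.18, adjusted p = 0.0392) and with limma on log2(TPM + 1) (1.71, adjusted p = 0.0152) and log2(TPM + 0.1) (1.76, adjusted p = 0.0139). Within the numbered mice its log2 fold change was 0.54 (edgeR adjusted p = 0.527).

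Between intracranial and extracranial Myc tumors none of the 9 genes passed the threshold in edgeR, where 0.0047% of 21261 genes did. At an unadjusted p under 0.05, which 12.3% of all genes reached, 2 of the 9 did so, namely Cd276 (lower in intracranial tumors, log2 fold change -1.51, 95% CI -2.48 to -0.53) and Lag3 (-1.32, 95% CI -2.41 to -0.24). The DESeq2 Wald test called 1 of the 9, Cd276 (-1.48, adjusted p = 0.0489), where it called 2.3% of all genes. Lag3 was at 2.68 to 16.3 TPM in intracranial and 7.96 to 32.2 TPM in extracranial tumors, and 5 of the 6 intracranial tumors, all but 43992A, were below every extracranial one. Cd276 was at 5.85 to 13.9 TPM and 7.18 to 45.1 TPM. The intervals of the other 7 genes all held 0, and they were as wide as -3.78 to 0.53 for Ctla4.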

How the data were processed

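RNA was taken by the authors from bulk tumor tissue cut by hand out of frozen material, and stranded mRNA libraries were sequenced as pairs of reads. The authors aligned reads to mm10 with STAR 2.5.3a, and the deposited tables hold raw counts and TPM (a level per transcript length) per gene and tumor. The gene annotation, and whether counting used strand, are not given in the sources used here. Subgroup names were matched to the labels by mouse name. The 9 genes and all lists of genes were chosen with earlier results of these data known.

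Counts were tested with edgeR 4.0.16 (R 4.3.3, TMM normalization, quasi-likelihood test) after removing genes without reads, and p-values were adjusted by Benjamini and Hochberg's method across every tested gene. The threshold was an adjusted p under 0.05 and a log2 fold change past 1. Shh and Myc tumors were compared in a fit of 2 groups, each Myc site and Shh in a fit of 3 groups, and the Myc sites in a fit of the 11 Myc tumors. DESeq2 1.42.0, limma 3.58.1 on log2(TPM + 1) and on log2(TPM + 0.1), DESeq2 size factors, a filter on low counts, no fold threshold, mouse-name series as a term, series or induction day alone, 43990A as intracranial (where the study's sample list, unlike the labels, puts it), and leaving out each tumor were alternatives. On simulated data for Shh against Myc, edgeR recovered 77% of 200 genes changed 8-fold and 48% changed 4-fold, among 21854 genes, and for the Myc sites 63% and 29.5% among 21261. The changed genes were drawn only from those with a mean count of at least 50. Pdcd1lg2, Ctla4 and Tigit did not reach that mean, so these shares do not cover them.

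By rule all 9 genes were named, and from each list of related genes other than cell type markers at least the 2 past the threshold with the largest fold changes, and others past it. Likeness used log2 CPM with a prior count of 2. A count of 3 corresponded to 0.0272 to 0.168 CPM across libraries. Intervals are for the difference between groups, given the variation between tumors. For edgeR, the SE and interval were computed from the log2 fold change and its F statistic. An item of the lists is not reported here.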

Additional observations from a re-analysis of the deposited data

Results flagged for a closer look

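Of 27 groups (9 genes in 3 groups of tumors), 2 held a tumor that stood apart from the rest of its group on the scale of log2(TPM + 1), where chance alone would mark about 5% of groups. Cd276 in the Shh tumor 29048 was at 4.6, or 23.2 TPM and 869 reads, while the other 4 Shh tumors held 84.2 to 113.2 TPM, and the gap to the nearest of them was 0.811 of the range of the group. Cd47 in the intracranial Myc tumor 43992A was at 8.5, or 361.9 TPM and 6060 reads, against 39.6 to 51.8 TPM in the other 5, with a gap of 0.88 of the range.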

How the results depend on the processing

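No paired analysis was possible because no mouse contributed more than a single tumor. Of 887 values of the 9 genes under alternatives, 774 kept direction and side of the threshold, 66 lost it, 25 gained it and 22 changed sign. Past the threshold between Shh and Myc tumors were 6 of the 9 genes, 8 with DESeq2 (Cd47 and Pdcd1 added, 29.1% of all genes), 3 with limma on log2(TPM + 1) (24.8% of all genes), 0 with R26P mice alone (where no gene at all passed) and 4 to 7 on leaving out 1 tumor. Against intracranial Myc tumors the count of 4 became 7 with DESeq2 (26.3% of all genes), 2 with limma on log2(TPM + 1) (23.7%), 0 in R26P mice and 3 to 5 on leaving out 1 tumor, and against extracranial Myc tumors the count of 5 became 7 with DESeq2 (27.4%), 0 in R26P mice and 4 to 7 on leaving out 1 tumor. Between the sites the count of 0 became 1 with DESeq2, which called 490 genes in all where edgeR called 1. The 14 of 17 partners became 8 with limma on log2(TPM + 1) (24.8% of all genes) and 7 with tumors induced at day 6 alone (16.9%). Their count was 9 in numbered mice (25.7% of all genes) and 0 in R26P mice. On leaving out 1 tumor it was 9 to 14 (21.9% to 30.5% of all genes). Here 9 was the lowest, and 29048, 38594A and R26P87 were the tumors that moved the count by over 1.5 times. The 13 other inhibitory genes became 0 in R26P mice. The 9 of 13 costimulatory genes became 0 and 4 with limma on log2(TPM + 1) and log2(TPM + 0.1) (24.8% and 30.1% of all genes). Their count was 2 at day 6 alone (16.9% of all genes), 3 in numbered mice (25.7%) and 0 in R26P mice. On leaving out 1 tumor it was 5 to 10 (5 without 38594A, with 21.9% of all genes). With limma, at day 6 alone and in numbered mice, the costimulatory counts were thus near or under the share of all genes. The 7 of 10 genes that control PD-L1 became 3 with limma on either scale, 4 at day 6 alone and 0 in R26P mice.

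Changes of sign were found in log2 fold changes that were not past the threshold. For Cd47 between the Myc sites (0.00), the value was -0.34 with limma on either scale, -0.39 in R26P mice, -0.33 with 43990A as intracranial and -1.15 to 0.52 on leaving out 1 tumor. For Pdcd1 between the sites it was 0.034 in numbered mice, 0.41 with 43990A as intracranial and -0.83 to 0.12 on leaving out 1 tumor, and against Shh it was 0.19 for intracranial R26P mice. For Tigit between the sites it was 0.11 with limma on log2(TPM + 0.1), 0.37 with 43990A as intracranial and -0.68 to 0.035 on leaving out 1 tumor, and for Havcr2 -0.85 to 0.093. For Lag3 between Shh and Myc tumors it was 0.42 and 0.46 with limma on log2(TPM + 1) and log2(TPM + 0.1), 0.63 at day 6 alone, 0.043 in numbered mice and -0.58 to 0.10 on leaving out 1 tumor. The cause was not tested in any of these, beyond the fewer tumors in the fits of 1 series or day. Depth limits Pdcd1lg2, Tigit and Ctla4 in Shh tumors, with 24, 12 and 17 reads in all.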

Other observations

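Single Myc tumors combined members in different ways. In 43992A, where Cd47 (361.9 TPM) was the highest of the 16 tumors, the 4 NK cell markers summed to 90.4 TPM and the 4 endothelial markers to 423.3 TPM, also the highest of the Myc tumors, while Pdcd1 had 1 read and the 3 Cd3 genes had 5. In 43825B, from the back of the mouse, Havcr2 was highest at 55.4 TPM and Cd47 was at 214.0 TPM, and the summed macrophage markers (10779 TPM) and dendritic cell markers (176.6 TPM) were the highest of the Myc tumors. In 43998A, Lag3 was the highest of the 16 at 32.2 TPM, Tigit had 1 read, and the mean of the 3 C1q genes was 146.1 TPM, the lowest of the Myc tumors. Its summed macrophage markers were not low, since no extracranial tumor was under 4768 TPM, the Myc median. In R26P123, Ctla4 was highest at 4.82 TPM. These tumors were chosen for description after their values were seen.

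Relative to the mean of the C1q genes, a ratio added after the data were seen, Lag3 was 0.0292 to 0.135 in Shh tumors and 0.00352 to 0.22 in Myc tumors, with medians of 0.0511 and 0.0137. The Myc maximum was in 43998A, the Myc tumor with the lowest C1q, whose summed macrophage markers were not low.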
